A study of Mus musculus with 5 samples.

Results

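The liver response to troglitazone (TGZ) given together with buthionine sulfoximine (BSO) was compared with that to vehicle across all genes of a single-colour Agilent expression array. Genes entered when the scanner software called their probe well above background on at least 1 of these 2 arrays. That left 21432 of the 36870 gene names, and 21419 of them had a value. All mice were female BALB/c, 6 weeks old, and livers were taken 6 hr after intraperitoneal dosing. The groups were BSO at 700 mg/kg plus TGZ at 300 mg/kg, TGZ alone at 300 mg/kg, BSO at 700 mg/kg plus rosiglitazone (RGZ) at 300 mg/kg, RGZ alone at 300 mg/kg, and vehicle, whose makeup the labels do not give. For each group the RNA of 6 livers was pooled and put on 1 array, which leaves no replicates, and no difference between groups was tested. No group received BSO alone, and the sources used here do not state the interval between BSO and TGZ.

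TGZ and RGZ are thiazolidinediones that activate PPAR gamma, the nuclear receptor of fat storage. TGZ carries a chromanol group like that of vitamin E where RGZ carries an aminopyridine, and TGZ was withdrawn from use for liver injury. BSO inhibits glutamate-cysteine ligase, the first enzyme of glutathione synthesis, and so lowers the main thiol that hepatocytes use to trap reactive metabolites. A liver under chemical stress commonly switches on stress transcription factors, cytokine-driven acute phase genes and antioxidant genes, and lowers parts of its synthetic programme.

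Values are scaled signals, the processed fluorescence divided by the array's 75th percentile, so that a value of 1 equals that percentile. The 75th percentile was a processed signal, before scaling, of 169.8 on the BSO plus TGZ array and 184.5 on the vehicle array. Of 56605 probes, 51.9% to 55.2% per array passed the background call, and 0 spots were saturated. Signals of different probes are not compared with each other, and sums over marker lists are set only between arrays and follow their brightest probes. Intervals in parentheses are 95% intervals of the software's own spot error. They span a factor of 1.32 either way for a typical gene and leave out variation between animals, pools and labellings. In whole liver, fewer cells of a type and less RNA per cell cannot be told apart.

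Relative to vehicle, 1780 genes were at least 2-fold higher with BSO plus TGZ and 1265 were at least 2-fold lower. These were 8.31% and 5.91% of the genes with a value, or 14.2% together, and the median log2 difference over all genes was -0.03. Scaling to the spike-in RNA in place of the 75th percentile moved that median by -0.19 and gave 1393 higher and 1963 lower, so the balance of directions depends on the scaling. The larger differences were mostly upward. At 4-fold, 539 genes were higher and 164 lower, and at 8-fold 176 were higher and 13 lower. At 16-fold, 76 were higher and 0 lower. Of the 3045 genes past 2-fold, 604 were bounds because the gene was not well above background on the other array, and these are written with "at least". Of the genes described below, Ccr2, Cyp1b1, Dusp19, Gpx7, Hspa1a, Il6, Mycl and Mycn were under 2-fold with another background removal (normexp). So were Ptk6, Vdr, Xrcc3, Mcm4, Tnfaip2, Tfrc, Ccnd1 and Glrx. Atf4, Gsta2, Map1lc3b and Txnrd1, like Glrx and Ccr2, were under 2-fold with spike-in scaling. All kept their direction.

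**Figure D1:**
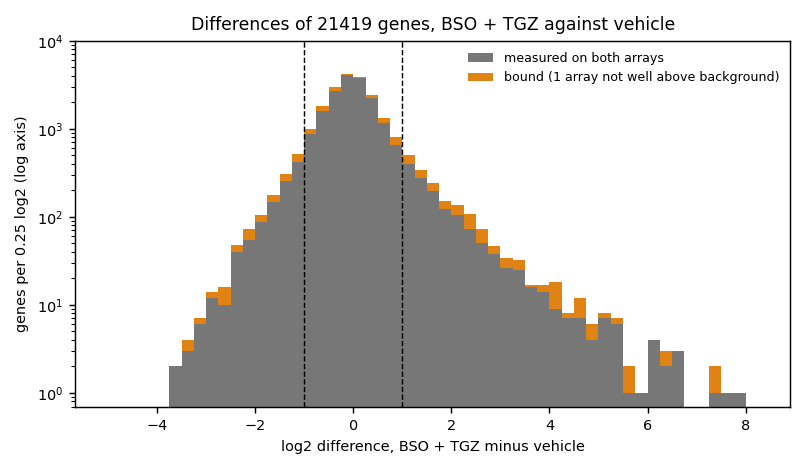
Number of genes (log axis) in steps of 0.25 of the log2 difference, BSO plus TGZ minus vehicle, with genes measured on both arrays in grey and bounds stacked in orange. Dashed lines mark 2-fold, and the right side reaches much farther from 0 than the left.

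The higher side was led by genes with a range of known roles. Cd14, the lipopolysaccharide co-receptor, had a scaled signal of 133 in BSO plus TGZ livers and 0.8498 in vehicle livers, a 156-fold difference (118 to 207). Arid5a, which stabilises inflammatory mRNAs, read 55.1 with BSO plus TGZ and 0.581 with vehicle, 94.7-fold (71.6 to 125). Pdk4, the kinase that blocks pyruvate oxidation, read 57.5 with BSO plus TGZ and 0.671 with vehicle, 85.6-fold (64.7 to 113). All 3 genes lay below the 75th percentile with vehicle and far above it with BSO plus TGZ. Rab30, a Golgi GTPase, was 77.2-fold higher, at 82.7 with BSO plus TGZ and 1.07 with vehicle. Ccr8, a chemokine receptor gene, stood at 7.17 with BSO plus TGZ and 0.106 with vehicle, 67.8-fold (47.8 to 96.1). Hilpda, an inhibitor of lipid droplet lipolysis, stood at 33.8 with BSO plus TGZ and 0.573 with vehicle, 58.9-fold. These genes belong to several different pathways.

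Some genes were above background with BSO plus TGZ but not with vehicle. Hcar2, the niacin receptor gene, had a signal of 2.79 with BSO plus TGZ and was not well above background with vehicle, at least 49.99-fold. Slc7a6, an amino acid exchanger, read 2.29 with BSO plus TGZ and was at least 41.1-fold higher. Slc10a6, a transporter of sulfated steroids, read 1.45 and was at least 25.97-fold higher. Vehicle values of these 3 genes lay below the dimmest signal called on that array, 0.0559.

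The 15 largest measured differences on the lower side belonged to genes of varied or unknown roles, led by Gm5524, an unnamed gene model, at 12.6-fold. Derl3, which helps draw misfolded proteins out of the endoplasmic reticulum, read 1.38 with BSO plus TGZ and 16.6 with vehicle, 12.1-fold lower (9.15 to 15.95). Cyp7a1, which catalyses the controlling first step from cholesterol to bile acids, read 0.4701 with BSO plus TGZ and 4.18 with vehicle, 8.89-fold lower (6.697 to 11.8). Hsd3b5, a male-biased steroid dehydrogenase gene, read 0.184 with BSO plus TGZ and 1.68 with vehicle, 9.17-fold lower. All 3 lay above the 75th percentile with vehicle, and with BSO plus TGZ only Derl3 did. Apol7a, an apolipoprotein L gene, was 7.57-fold lower, at 5.15 with BSO plus TGZ and 39.01 with vehicle. Gas1, a growth arrest gene, was 7.62-fold lower, at 0.152 with BSO plus TGZ and 1.15 with vehicle. Dclk3, a kinase gene, was 7.37-fold lower, and Fam214a and Ell3, an elongation factor gene, 9.55-fold and 8.38-fold. Other probes of Cyp7a1 and Fam214a differed by -2.33 and -2.59 on the log2 scale, less than the -3.15 and -3.26 of the probes used. Among bounds, Ptk6, a non-receptor tyrosine kinase gene, was at least 6.73-fold lower. Xrcc3, a DNA repair gene, was lower by at least 6.11-fold.

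**Figure D2:**
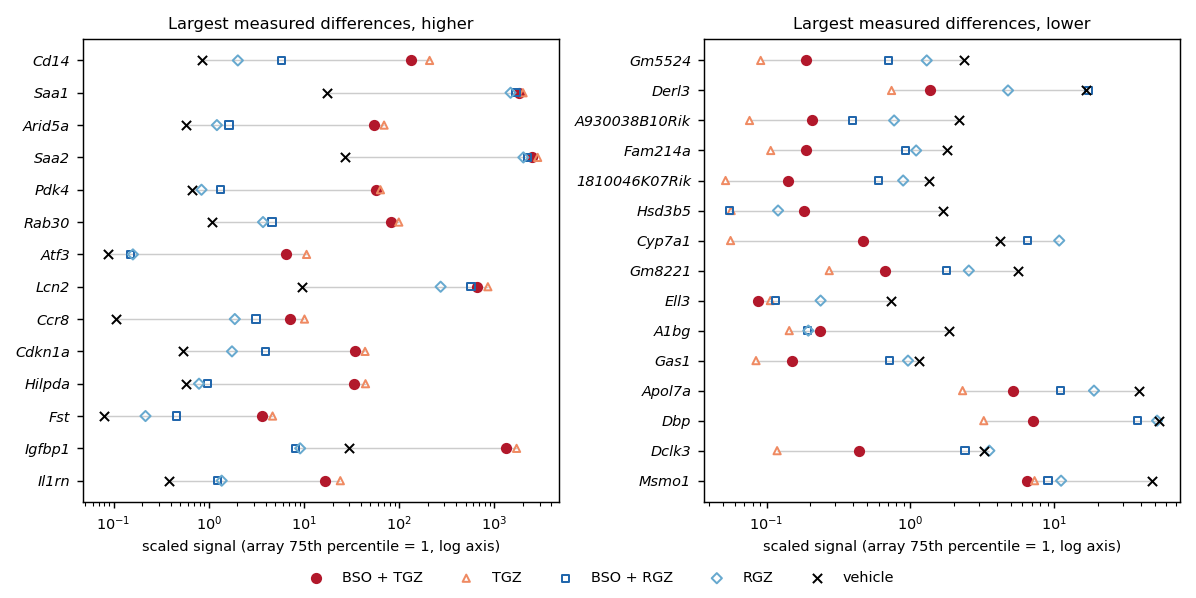
Scaled signal (log axis) on each of the 5 arrays for 14 genes with the largest measured upward differences between BSO plus TGZ and vehicle and for the 15 largest downward ones, 1 array per group. Red circles (BSO plus TGZ) lie at the right of black crosses (vehicle) in the left panel and at their left in the right panel, which the choice of genes fixes. Values below background are drawn as measured.

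Glutathione genes passed 2-fold about as often as all genes, of which 14.2% did. Of 16 members with a value, 2 were at least 2-fold higher and 1 lower, with a median log2 difference of -0.06, against -0.03 for all genes. Gclc, the catalytic subunit of the enzyme that BSO inhibits, had a signal of 53.9 with BSO plus TGZ and 51.3 with vehicle, a ratio of 1.05 (0.795 to 1.38). Its modifier subunit gene Gclm stood at 42.6 with BSO plus TGZ and 50.5 with vehicle, 1.19-fold lower (0.8995 to 1.57). Gss, glutathione synthetase, stood at 38.4 with BSO plus TGZ and 47.98 with vehicle, 1.25-fold lower (0.947 to 1.65). The spot intervals of these 3 genes include no difference. The breakdown enzymes differed in opposite directions. Chac1, a cytosolic glutathione-cleaving enzyme, read 35.7 with BSO plus TGZ and 1.58 with vehicle, 22.6-fold higher (17.1 to 29.8). Its relative Chac2 read 1.82 with BSO plus TGZ and 7.38 with vehicle, 4.05-fold lower (3.07 to 5.35). The glutaredoxin gene Glrx was 2.02-fold higher.

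Enzymes that use glutathione were likewise near the all-gene share of 14.2%. Among 25 transferases and peroxidases, 2 were higher, Gpx3 at 2.82-fold and Gsta2 at 2.21-fold, and 1 was lower, Gpx7 at 2.15-fold (median -0.08). In the methionine cycle and transsulfuration, which supply cysteine, 1 of 17 genes passed 2-fold. That gene was Mat2a, the extrahepatic S-adenosylmethionine synthase, 3.495-fold higher at 57.2 with BSO plus TGZ and 16.4 with vehicle, although another of its probes differed by only 0.53 on the log2 scale.

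NRF2 is the transcription factor that senses electrophiles and activates antioxidant genes. Of its 21 listed targets, 3 were at least 2-fold higher and 0 lower (median 0.12). Among all genes 8.31% were higher and 5.91% lower, or 14.2% together, so the list passed 2-fold about as often as all genes. Hmox1, heme oxygenase 1, had a signal of 185 with BSO plus TGZ and 4.58 with vehicle, 40.3-fold (30.6 to 53.2). Srxn1, sulfiredoxin, read 107 with BSO plus TGZ and 23.6 with vehicle, 4.55-fold (3.45 to 5.997). Txnrd1, cytosolic thioredoxin reductase, read 64.5 with BSO plus TGZ and 30.6 with vehicle, 2.11-fold (1.597 to 2.78). Other classical targets were within 2-fold. Nqo1, a quinone reductase, read 0.465 with BSO plus TGZ and 0.584 with vehicle, and Gsr, glutathione reductase, 43.3 with BSO plus TGZ and 35.6 with vehicle. Of 22 thioredoxin and peroxiredoxin genes, Srxn1 and Txnrd1 were the 2 that passed 2-fold upward, and Sesn3, a sestrin, was 2.32-fold lower. This list too was near the all-gene share of 14.2%.

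The Srxn1 promoter is shown because it holds the AP-1 element TGANTCA (N is any base, both strands searched), letters that can overlap the antioxidant response element. It comes from RefSeq, build GRCm38.p6, plus strand, chr2:152105274-152105573, from 250 bases before the annotated start to 50 after it, with 2 matches in capitals. Of 27025 promoters in the table, 7.92% hold the AP-1 letters at least once. The Srxn1 promoter also holds 1 match to the antioxidant response element, searched as TGACNNNGC on either strand. That match is not in capitals and is neither of the capitalised stretches. Its letters occur in 12.4% of the 27025 promoters.
Srxn1: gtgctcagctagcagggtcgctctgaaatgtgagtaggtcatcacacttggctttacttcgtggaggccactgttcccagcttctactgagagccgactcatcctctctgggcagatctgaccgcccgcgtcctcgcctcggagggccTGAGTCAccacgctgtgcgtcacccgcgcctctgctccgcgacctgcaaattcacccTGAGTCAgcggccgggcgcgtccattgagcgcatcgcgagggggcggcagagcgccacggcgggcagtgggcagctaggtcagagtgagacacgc

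Several metal-handling genes were higher. Slc39a14, a zinc and iron importer, had a signal of 140.0 with BSO plus TGZ and 16.05 with vehicle, 8.72-fold. The metallothionein genes Mt1 and Mt2, which buffer zinc, were 5.06-fold and 7.54-fold higher. Those were 3 of 9 metallothionein and zinc transporter genes, with a list median of 0.76. In iron handling, Hamp, the hormone hepcidin, read 512 with BSO plus TGZ and 58.6 with vehicle, 8.73-fold higher. The mRNA of Slc40a1, the iron exporter that hepcidin degrades as a protein, was 2.5-fold lower, and that of Tfrc, the transferrin receptor, 2.12-fold lower. Across 23 heme and iron genes, 4 were higher and 2 lower, with a median of -0.01.

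The integrated stress response slows translation and induces ATF4 targets when amino acids, heme or protein folding fail. Of 23 members, 10 were at least 2-fold higher and 0 lower, with a median of 0.60. Atf3, a stress transcription factor, had a signal of 6.51 with BSO plus TGZ and 0.0871 with vehicle, 74.8-fold (50.2 to 111). Ddit4, an inhibitor of mTORC1, read 60.7 with BSO plus TGZ and 5.598 with vehicle, 10.8-fold. Gdf15, a circulating stress hormone, read 30.5 with BSO plus TGZ and 2.82 with vehicle, 10.8-fold. Members differed widely in size. Asns, asparagine synthetase, was 5.39-fold and Fgf21, a fasting hormone, 4.93-fold higher, and Atf4 itself 2.23-fold. By contrast Ddit3, the factor CHOP, read 0.412 with BSO plus TGZ and 0.4802 with vehicle, and Trib3, a pseudokinase of the same pathway, 5.16 with BSO plus TGZ and 4.92 with vehicle, both within 1.32-fold of vehicle. A second Ddit3 probe differed by 0.82 on the log2 scale. None of 20 aminoacyl tRNA synthetase genes, a further class of ATF4 targets, passed 2-fold (median -0.10). Amino acid transporters passed 2-fold about as often as all genes (14.2%). Of 17 members, Slc38a2 (5.46-fold) and Slc7a1 (3.99-fold) were higher and Slc36a1 3.04-fold lower. Other probes of Slc38a2 and Slc36a1 differed by 0.26 and 0.31 on the log2 scale, so these transporters are uncertain.

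Promoters of this list are shown because ATF4 with C/EBP partners is known to act through a composite element, TGATGNAAN. All 24 listed genes had a promoter in the RefSeq table and 7 held the element on either strand, against 4.04% of all 27025 promoters. Of the 10 genes at least 2-fold higher, 4 held it, namely Atf3, Chac1, Asns and Fgf21, and it also lay in the promoter of Trib3, which stayed near vehicle. Capitals mark the element. Build GRCm38.p6 applies, with Chac1 at chr2:119350992-119351291 on the plus strand, and on the minus strand Atf3 at chr1:191183284-191183583, Asns at chr6:7693160-7693459, Fgf21 at chr7:45615441-45615740 and Trib3 at chr2:152344011-152344310.
Atf3: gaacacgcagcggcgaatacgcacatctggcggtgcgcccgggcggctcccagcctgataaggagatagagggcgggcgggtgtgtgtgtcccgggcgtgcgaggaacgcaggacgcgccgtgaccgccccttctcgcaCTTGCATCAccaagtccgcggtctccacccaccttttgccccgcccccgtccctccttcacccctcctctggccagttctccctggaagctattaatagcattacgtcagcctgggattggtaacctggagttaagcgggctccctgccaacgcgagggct
Chac1: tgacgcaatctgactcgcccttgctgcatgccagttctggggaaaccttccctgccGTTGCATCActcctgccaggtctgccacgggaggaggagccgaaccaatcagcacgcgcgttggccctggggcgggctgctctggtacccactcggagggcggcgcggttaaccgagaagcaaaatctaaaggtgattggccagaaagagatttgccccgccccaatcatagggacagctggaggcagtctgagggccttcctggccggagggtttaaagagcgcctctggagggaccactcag
Asns: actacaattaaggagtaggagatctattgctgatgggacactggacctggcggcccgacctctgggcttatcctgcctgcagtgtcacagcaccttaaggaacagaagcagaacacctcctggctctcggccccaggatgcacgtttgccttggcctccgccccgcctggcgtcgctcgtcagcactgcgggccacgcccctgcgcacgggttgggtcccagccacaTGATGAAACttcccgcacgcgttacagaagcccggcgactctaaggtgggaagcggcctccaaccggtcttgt
Fgf21: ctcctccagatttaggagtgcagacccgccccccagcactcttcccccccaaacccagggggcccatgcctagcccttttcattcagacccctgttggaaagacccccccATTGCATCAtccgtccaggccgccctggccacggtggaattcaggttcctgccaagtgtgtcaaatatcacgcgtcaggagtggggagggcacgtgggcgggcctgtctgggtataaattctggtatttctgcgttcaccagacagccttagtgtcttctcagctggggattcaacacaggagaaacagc
Trib3: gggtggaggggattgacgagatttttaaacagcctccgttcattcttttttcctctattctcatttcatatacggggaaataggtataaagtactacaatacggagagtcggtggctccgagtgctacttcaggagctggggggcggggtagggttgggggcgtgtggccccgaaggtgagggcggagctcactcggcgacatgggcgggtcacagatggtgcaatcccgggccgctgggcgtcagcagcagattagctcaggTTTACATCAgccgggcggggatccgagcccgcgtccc

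Chaperones of the endoplasmic reticulum, which fold secreted proteins, passed 2-fold about as often as all genes (14.2%). Of 26 genes, 3 were lower and 1 higher, with a median of -0.35. Besides Derl3, the lower genes were Sdf2l1 (2.39-fold) and the disulfide isomerase gene Pdia4 (2.11-fold), and Dnajb9, a co-chaperone of BiP, was 2.43-fold higher. In the cytosol, 4 of 22 heat shock genes were higher and 1 lower, with a median of -0.28. The lower one was Hsf2, a heat shock transcription factor, at 2.198-fold. Hspb8 and its partner Bag3, which route proteins to autophagy, were 3.2-fold and 2.99-fold higher, Hspa8 2.33-fold and Hspa1a at least 5.94-fold. Autophagy genes had 4 of 24 members higher (16.7%) and 0 lower, beside 8.31% higher and 5.91% lower among all genes. In total the list passed 2-fold about as often as all genes (14.2%). The higher members were Ctsl (2.83-fold), Ulk1 (2.48-fold), Atg12 (2.28-fold) and Map1lc3b (2.26-fold).

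**Figure D3:**
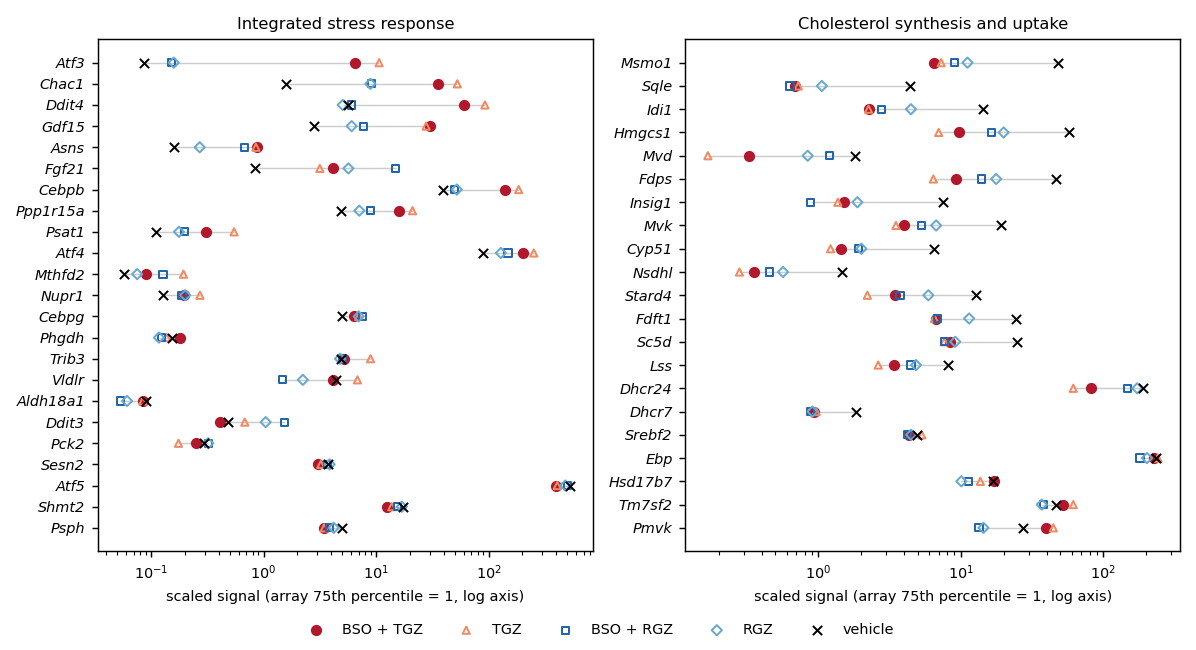
Scaled signal (log axis) of the members reported here of the integrated stress response list (left) and the cholesterol synthesis and uptake list (right) on the 5 arrays, 1 array per group. In the right panel the red circles of BSO plus TGZ lie at the left of the black crosses of vehicle for most members, while in the left panel they lie at the right for the upper members and near them below.

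Growth arrest and DNA damage genes held some of the larger differences. Cdkn1a, the cell cycle inhibitor p21, read 34.1 with BSO plus TGZ and 0.5305 with vehicle, 64.2-fold (48.4 to 85.2). Btg2, an antiproliferative gene, read 28.3 with BSO plus TGZ and 0.7397 with vehicle, 38.3-fold. The stress sensors Gadd45b, Gadd45g and Gadd45a were 26.6-fold, 12.6-fold and 9.14-fold higher. In all, 9 of 25 listed p53 targets were higher and 1 lower, with a median of 0.48. The lower one was Bbc3, the pro-death factor PUMA, at 1.77 with BSO plus TGZ and 4.405 with vehicle, 2.49-fold. In the BCL2 family the survival genes Bcl2l1 and Mcl1 were 7.85-fold and 2.48-fold higher, and all 4 other Bcl2l1 probes differed by 2.62 or more on the log2 scale. Bcl2l11, the pro-death factor BIM, was 5.18-fold higher, with 0.62 on the log2 scale at another probe.

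Immediate responders to stress and growth signals formed another group. In the AP-1 family, dimeric factors that bind TGANTCA, 10 of 17 members were higher and 0 lower, with a median of 1.59. Fos read 3.65 with BSO plus TGZ and 0.304 with vehicle, 12.01-fold (8.999 to 16.04). Jun read 37.6 with BSO plus TGZ and 4.14 with vehicle, 9.09-fold (6.89 to 11.99). The small MAF gene Maff and the FOS relative Fosl2 were 11.6-fold and 10.9-fold higher, and Junb 4.18-fold. Of 16 EGR, NR4A and IER genes, 7 were higher. The orphan receptor gene Nr4a1 was 34.3-fold and Ier3 26.2-fold higher, whereas Egr1 was 2.96-fold higher. Nab2, a corepressor of EGR factors, was 5.32-fold lower, at 1.69 with BSO plus TGZ and 8.97 with vehicle.

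Several feedback inhibitors were also higher. Of 13 dual-specificity phosphatases, which switch off MAP kinases, 5 were higher and 1 lower, Dusp8 at 15.1-fold, Dusp5 at 7.38-fold and Dusp19 2.48-fold lower. Kruppel-like factors had 5 of 14 higher, led by Klf6 at 32 with BSO plus TGZ and 2.88 with vehicle (11.1-fold) and Klf4 (6.55-fold). Among 13 regulators of inflammatory mRNA decay, 5 were higher, including Zc3h12a, the RNase regnase-1, at 7.89-fold, and Zfp36l2 at 3.23-fold. Myc, which promotes ribosome production, read 0.869 with BSO plus TGZ and 0.0917 with vehicle, 9.48-fold (6.54 to 13.7), while its relatives Mycn and Mycl were 4.85-fold and 3.94-fold lower. Nucleolar genes of ribosome assembly had 8 of 28 higher and 0 lower (median 0.56), Nop58 at 4.19-fold and Rrs1 at 3.098-fold. None of 28 ribosomal protein genes passed 2-fold.

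TGF beta family ligands, antagonists and targets differed in both directions. Fst, follistatin, an activin trap, read 3.67 with BSO plus TGZ and 0.0801 with vehicle, 45.8-fold (30.1 to 69.7). Inhbb, an activin subunit, read 11.4 with BSO plus TGZ and 0.48 with vehicle, 23.8-fold, while another subunit gene, Inhba, was 2.64-fold lower. Tgfb3 was 5.76-fold and the target gene Id1 6.58-fold higher. The list had 9 of 25 members higher and 2 lower.

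Acute phase genes, which hepatocytes switch on under interleukin 6 and interleukin 1, had 17 of 26 members at least 2-fold higher and 0 lower, with a median of 2.02. Saa1 had a signal of 1804 with BSO plus TGZ and 17.5 with vehicle, 103-fold (78.3 to 136). Saa2 read 2508 with BSO plus TGZ and 27.3 with vehicle, 91.7-fold. Before scaling both lay above the brightest spike-in RNA on the treated array, outside the range that the spike-ins cover. Lcn2, an iron-binding lipocalin, read 662 with BSO plus TGZ and 9.63 with vehicle, 68.7-fold (52.1 to 90.7). Serpina3n, a protease inhibitor, was 12.04-fold, the metalloreductase gene Steap4 15.4-fold and the orosomucoid gene Orm3 8.19-fold higher. Fibrinogen chains differed less, Fga at 3.47-fold, Fgb at 2.38-fold and Fgg at 1.98-fold. Probes of related Saa and Orm genes can share target sequence.

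Cytokine pathway genes showed both inducers and brakes. In the interleukin 6, STAT3 and SOCS list 13 of 23 were higher and 0 lower (median 1.15). Socs3, the feedback inhibitor of this pathway, read 69.1 with BSO plus TGZ and 1.97 with vehicle, 35.02-fold (26.5 to 46.2). Stat3 was 2.87-fold higher, at 122 with BSO plus TGZ and 42.6 with vehicle, and Osmr, the oncostatin M receptor, 4.07-fold. Il6 itself read 0.244 with BSO plus TGZ and was not well above background with vehicle, at least 4.36-fold. In the interleukin 1 family, the antagonist gene Il1rn was 43.4-fold higher, the receptor gene Il1r1 13.4-fold and the decoy receptor gene Il1r2 at least 88.9-fold. Another Il1rn probe differed by 3.77 on the log2 scale, less than the 5.44 of the probe used. The ligand Il1b stood at 0.963 with BSO plus TGZ and 0.524 with vehicle, below 2-fold. Both inhibitor genes had larger fold differences than this ligand.

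Among NF-kappaB genes, 7 of 18 were higher and 1 lower, with a median of 0.88. The kinase gene Map3k8 was 10.04-fold higher, the inhibitor genes Tnip2 and Tnfaip3 5.97-fold and 2.96-fold, and Tnfaip2 2.16-fold lower. Chemokines and their receptors had 11 of 31 higher and 2 lower. Cxcl1, a neutrophil attractant, read 136 with BSO plus TGZ and 3.83 with vehicle, 35.4-fold (26.8 to 46.7). Cx3cr1, the fractalkine receptor, was lower at 0.295 with BSO plus TGZ and 1.72 with vehicle, 5.85-fold. In the TNF superfamily, Tnfrsf12a, the TWEAK receptor, was 14.96-fold and Tnfrsf1a 2.88-fold higher. Interferon-stimulated genes passed 2-fold about as often as all genes (14.2%), with 3 of 26 lower, 1 higher and a median of -0.32. Psmb9, an immunoproteasome subunit, was 2.82-fold lower, whereas Rsad2, the antiviral protein viperin, was 3.45-fold higher. Anticoagulant and vessel wall genes were also higher, thrombomodulin (Thbd) at 17.2-fold, von Willebrand factor (Vwf) at 7.98-fold and Plaur, the urokinase receptor, at 12.6-fold, among 7 of 26 coagulation and fibrinolysis genes.

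Many markers of neutrophils and monocytes were higher beside these inflammatory genes. Of 12 neutrophil markers 8 were at least 2-fold higher and 0 lower, with a median of 2.43. Their summed scaled signal was 259.7 with BSO plus TGZ against 113 with vehicle. These sums were mostly Csf3r, at 115 with BSO plus TGZ and 100 with vehicle, and S100a9, at 103 with BSO plus TGZ and 6.2 with vehicle. The granule protein gene S100a8 read 27.2 with BSO plus TGZ and 1.34 with vehicle, 20.2-fold, and Retnlg 7.13 with BSO plus TGZ and 0.189 with vehicle, 37.8-fold. Ly6g, the defining surface marker, read 0.814 with BSO plus TGZ and 1.11 with vehicle, and Elane 2.21 with BSO plus TGZ and 2.87 with vehicle. Infiltrating monocyte markers had 4 of 6 higher, Chil3 at least 10.9-fold, Plac8 3.03-fold, S100a4 2.76-fold and Ccr2 2.25-fold. Ly6c2, the defining marker of these cells, was lower at 8.52 with BSO plus TGZ and 13.2 with vehicle, 1.56-fold (1.18 to 2.05). The monocyte sums, 353.8 with BSO plus TGZ and 310.7 with vehicle, were mostly Fn1, fibronectin, at 334 with BSO plus TGZ and 294 with vehicle. Kupffer cell markers had 0 of 10 higher and 1 lower, with sums of 66.7 with BSO plus TGZ and 61.1 with vehicle. Hepatocyte markers summed to 5553 with BSO plus TGZ and 5075 with vehicle, and all 7 were well above background on both arrays, as in liver. The summed markers of sinusoidal endothelium were 58.6 with BSO plus TGZ and 71.3 with vehicle. Of these 8 markers 1 was at least 2-fold higher, Lyve1 at 14.7-fold, and 1 was lower, with a median of -0.26. For the other classes, the BSO plus TGZ and vehicle sums were 125.7 and 114.5 for stellate cells, 10.8 and 6.22 for cholangiocytes, 42.4 and 46.6 for T and NK cells, 0.731 and 1.17 for B cells and 481.5 and 424.1 for erythroid cells. Cd4 made up most of the T and NK cell sums, Hba-a1 most of the erythroid ones and Dcn most of the stellate cell ones. Of 8 stellate cell markers 0 were at least 2-fold higher and 1 was lower, with a median of -0.04. Of 4 cholangiocyte markers with a value, 1 was at least 2-fold higher and 0 lower, with a median of 0.13. Krt7, Epcam, Cd8a, Klrb1c and Cd79a were not well above background on either array. The part of cell content in the inflammatory differences was not tested.

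Cholesterol genes were the group with the most members lower. Of 24 genes 17 were at least 2-fold lower and 0 higher, with a median of -1.72. Msmo1, a sterol demethylating oxidase, had a signal of 6.505 with BSO plus TGZ and 47.9 with vehicle, 7.37-fold lower (5.59 to 9.73). Hmgcs1, which makes HMG-CoA, read 9.78 with BSO plus TGZ and 57.1 with vehicle, 5.84-fold lower (4.43 to 7.71). Idi1, an isoprenoid isomerase, read 2.27 with BSO plus TGZ and 14.3 with vehicle, 6.29-fold lower (4.77 to 8.31). The steps from mevalonate to sterol were lower along the pathway, Mvk at 4.84-fold, Fdps at 4.98-fold, Fdft1 at 3.66-fold, Sqle at 6.46-fold and Cyp51 at 4.502-fold. Abca1, the sterol exporter, was 3.899-fold higher, at 39.4 with BSO plus TGZ and 10.1 with vehicle. The fatty acid list had 6 of 23 lower and 2 higher (median -0.52). Fasn read 43.97 with BSO plus TGZ and 194 with vehicle, 4.42-fold lower, and Srebf1, the lipogenic transcription factor, was 2.73-fold lower, whereas the desaturase gene Scd1 was 3.55-fold higher.

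The Hmgcs1 promoter is shown because, of the listed cholesterol genes with a RefSeq promoter, it alone held the sterol regulatory element TCACNCCAC. SREBP factors bind this element. These letters, on either strand, occur in 1.22% of the 27025 promoters. Only 16 of the 24 listed cholesterol genes, 66.7%, had a promoter in the table, so a share over the list would be void and is not given. The same holds for motif shares over all genes past 2-fold, of which 57.8% (higher) and 65.8% (lower) had a promoter. The window is chr13:119690101-119690400, plus strand, GRCm38.p6, with the element in capitals.
Hmgcs1: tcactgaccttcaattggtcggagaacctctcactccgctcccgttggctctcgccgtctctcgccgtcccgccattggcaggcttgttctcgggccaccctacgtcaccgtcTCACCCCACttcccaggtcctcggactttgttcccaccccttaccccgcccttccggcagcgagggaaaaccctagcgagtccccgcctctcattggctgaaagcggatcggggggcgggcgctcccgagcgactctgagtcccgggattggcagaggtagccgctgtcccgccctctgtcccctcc

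Part of the genes of fat burning and fat storage were higher, although PPAR gamma itself was not. Pparg read 4.703 with BSO plus TGZ and 4.73 with vehicle, 1.01-fold lower (0.762 to 1.33). Of 23 genes on the list of its targets and of droplet coats, 10 passed 2-fold upward and 0 downward (median 0.54). Cidec, which fuses droplets, read 26.8 with BSO plus TGZ and 0.688 with vehicle, 38.9-fold. Plin4, a droplet coat gene, read 26.3 with BSO plus TGZ and 0.893 with vehicle, 29.4-fold. Fabp4, a fatty acid carrier of adipocytes and macrophages, was 4.99-fold and the triglyceride lipase gene Pnpla2 3.42-fold higher. PPAR alpha targets had 9 of 29 higher and 0 lower (median 0.31), with the uncoupling protein genes Ucp2 and Ucp3 at 3.83-fold and 3.46-fold.

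Fasting and insulin-regulated genes split. Igfbp1, a carrier of insulin-like growth factors that insulin suppresses, read 1329 with BSO plus TGZ and 29.96 with vehicle, 44.4-fold higher (33.6 to 58.5). Irs2, an insulin receptor adaptor, was 6.62-fold higher while Irs1 was 2.36-fold lower. Ppargc1a, the coactivator PGC-1 alpha, was 3.85-fold higher, yet G6pc, glucose-6-phosphatase, was lower at 23.1 with BSO plus TGZ and 46.3 with vehicle, 2.01-fold. Ppp1r3g, a glycogen-targeting subunit, read 34.8 with BSO plus TGZ and 1.36 with vehicle, 25.5-fold higher, while its relative Ppp1r3c was 2.57-fold lower. Glucocorticoid targets had 7 of 14 higher, Zbtb16 at 4.77-fold and Fkbp5 at 2.69-fold. Tsc22d3, the protein GILZ, was 4.59-fold lower, at 11.3 with BSO plus TGZ and 52.02 with vehicle.

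Liver-specific functions were touched unevenly. Bile acid genes had 0 of 22 higher and 4 lower (median -0.38). After Cyp7a1 the lowest was Nr0b2, the corepressor SHP, at 0.497 with BSO plus TGZ and 1.84 with vehicle, 3.69-fold. Nuclear receptors had 5 of 25 lower, among them Thra (2.57-fold) and Rxrg (2.36-fold), and Vdr, the vitamin D receptor, at least 6.07-fold higher. Of 15 sex-biased genes 6 were lower, Hsd3b2, Hsd3b3 and Hsd3b6 at 3.92-fold, 3.64-fold and 4.13-fold and A1bg at 7.85-fold, and probes of the related Hsd3b genes can share target sequence. Drug-metabolising P450 genes had 1 of 34 higher, Cyp1b1 at least 3.56-fold, and 1 lower, Cyp2c44 at 2.47-fold. Of 22 glucuronosyltransferase and sulfotransferase genes 4 were lower, including Sult3a1 (2.77-fold). This list and the bile acid list each had 18.2% lower and the P450 list 2.94%, beside 5.91% of all genes. Past 2-fold in either direction were 14.2% of all genes, so the first 2 lists were near that share and the P450 list below it. None of 28 respiratory chain, 30 proteasome or 19 apolipoprotein and lipoprotein assembly genes passed 2-fold.

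Amino acid breakdown and the clock held further single genes. Got1, cytosolic aspartate aminotransferase, read 414 with BSO plus TGZ and 82.7 with vehicle, 5.01-fold higher, and Aass, of lysine breakdown, was 3.13-fold higher. Hal, histidine ammonia-lyase, was 2.95-fold lower. In clock output, Dbp stood at 7.09 with BSO plus TGZ and 53.1 with vehicle, 7.49-fold lower, and its antagonist Nfil3 at 46.2 with BSO plus TGZ and 6.88 with vehicle, 6.71-fold higher. Per3 was 3.55-fold lower and Per1 2.33-fold higher. Of 26 cell cycle genes 5 were higher, Ccne1 (cyclin E1) at 3.93-fold and the licensing factor gene Mcm4 at 2.35-fold, and 1 lower, Ccnd1 (cyclin D1) at 2.05-fold.

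**Figure D4:**
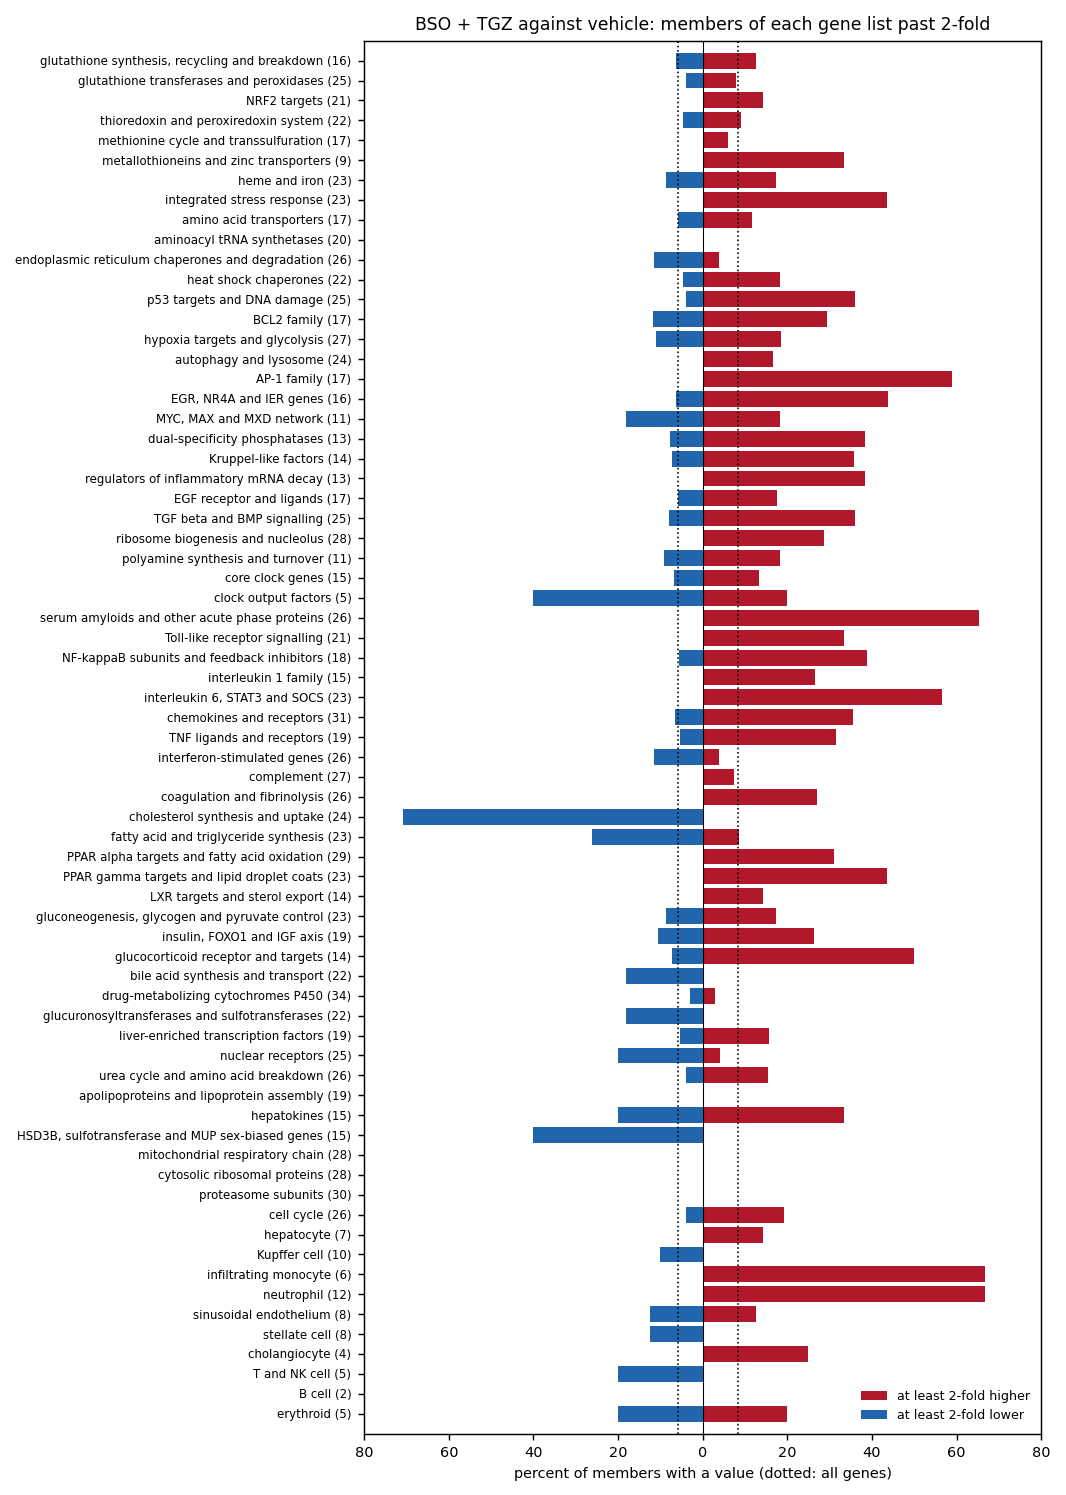
Percentage of members with a value (their number in parentheses) that were at least 2-fold higher (red, right) or lower (blue, left) with BSO plus TGZ than with vehicle, for each of the 69 gene lists. Dotted lines mark the same for all genes, 8.31% and 5.91%, and the longest blue bar is that of cholesterol synthesis and uptake.

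Across all 5 arrays some leading genes set the TGZ arrays apart and others did not. Cd14 read 133 with BSO plus TGZ, 209 with TGZ, 5.84 with BSO plus RGZ, 2.02 with RGZ and 0.8498 with vehicle. Hmox1 read 185 with BSO plus TGZ, 86.2 with TGZ, 9.79 with BSO plus RGZ, 7.48 with RGZ and 4.58 with vehicle. Cidec read 26.8 with BSO plus TGZ, 36.9 with TGZ, 3.69 with BSO plus RGZ, 1.75 with RGZ and 0.688 with vehicle. For these 3 genes both TGZ arrays were well above both RGZ arrays, which lay above vehicle. Hmgcs1 read 9.78 with BSO plus TGZ, 6.99 with TGZ, 16.4 with BSO plus RGZ, 19.97 with RGZ and 57.1 with vehicle. Saa1 read 1804 with BSO plus TGZ, 2011 with TGZ, 1692 with BSO plus RGZ, 1485 with RGZ and 17.5 with vehicle. Hmgcs1 was lowest and Saa1 highest on the TGZ arrays, but for Saa1 all 4 treated arrays lay far above vehicle and close to each other.

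Direct comparisons at matched doses were made for 2 pairs, again without a test. Against TGZ alone at 300 mg/kg, BSO plus TGZ had 326 genes at least 2-fold higher and 103 lower, 1.57% and 0.495% of 20809 genes with a value, or 2.06% together. G6pc had a signal of 23.1 with BSO plus TGZ and 3.54 with TGZ, 6.52-fold (4.94 to 8.601), beside 46.3 with vehicle. Fam89a read 1.47 with BSO plus TGZ and 0.195 with TGZ, 7.53-fold (5.54 to 10.2), beside 6.99 with vehicle. Angptl8, an inhibitor of lipoprotein lipase that feeding induces, read 39.6 with BSO plus TGZ and 7.39 with TGZ, 5.36-fold (4.06 to 7.07), beside 112 with vehicle. In each of the 8 genes with the largest measured upward differences, the BSO plus TGZ signal lay between the TGZ and vehicle signals. These genes were chosen for their difference from TGZ. The other 5 were Kcnj10, a potassium channel gene, at 6.84-fold, Prok1, a secreted prokineticin, at 5.01-fold, Anks4b at 4.41-fold, Gm26588 at 4.32-fold and Wnt5b, a WNT ligand, at 4.28-fold. Fasn at 4.25-fold, Per3 at 4.19-fold and Nr0b2 at 3.19-fold were also higher with BSO plus TGZ than with TGZ, and each was lower than with vehicle. Hmox1 was 2.14-fold higher with BSO plus TGZ than with TGZ, at 185 with BSO plus TGZ and 86.2 with TGZ. Gsx1 was 9.04-fold lower (6.28 to 13), at 0.116 with BSO plus TGZ and 1.05 with TGZ, and Tbxa2r, the thromboxane receptor, 5.91-fold lower (3.97 to 8.79). Signals of the remaining 6 lower genes, such as Adam12, a metalloprotease gene, lay below the 75th percentile on both arrays.

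Stress and acute phase genes seldom passed 2-fold between BSO plus TGZ and TGZ, as was so for all genes, of which 2.06% did. Of 23 integrated stress response genes 0 were higher and 1 lower, and of 26 acute phase genes 1 was higher and 0 lower. Cd14 read 133 with BSO plus TGZ and 209 with TGZ, each under 2-fold apart. Atf3 read 6.51 with BSO plus TGZ and 10.7 with TGZ, and Chac1 35.7 with BSO plus TGZ and 52.8 with TGZ. Gclc read 53.9 with BSO plus TGZ and 52.1 with TGZ, a ratio within the spot error. With 1 array per group such a closeness does not show that the treatments acted alike.

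Against BSO plus RGZ at the same doses, which differs in the thiazolidinedione, BSO plus TGZ had 1775 genes at least 2-fold higher and 1124 lower, 8.33% and 5.28% of 21299 genes, or 13.6% together. Igfbp1 had a signal of 1329 with BSO plus TGZ and 8.08 with BSO plus RGZ, 164-fold (125 to 217). Pdk4 read 57.5 with BSO plus TGZ and 1.32 with BSO plus RGZ, 43.5-fold (32.9 to 57.4). Atf3 read 6.51 with BSO plus TGZ and 0.151 with BSO plus RGZ, 43.03-fold (31.3 to 59.1). With BSO plus RGZ, Pdk4 and Atf3 lay within 2-fold of their vehicle signals and Igfbp1 below its own. Hilpda, Srrm4, a neural splicing factor gene, and Myh7, a myosin heavy chain gene, were 35.04-fold, 34.7-fold and 33.2-fold higher with BSO plus TGZ. By list, 10 of 17 AP-1 genes and 11 of 23 interleukin 6, STAT3 and SOCS genes were higher and none lower, and 7 of 12 neutrophil markers were higher.

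Other genes were lower with BSO plus TGZ than with BSO plus RGZ. Bhlha15, a factor of secretory cells, read 0.0832 with BSO plus TGZ and 4.09 with BSO plus RGZ, 49.1-fold lower (31.3 to 76.98). Saa3, a serum amyloid gene that macrophages express, read 72.7 with BSO plus TGZ and 615 with BSO plus RGZ, 8.46-fold lower (6.41 to 11.2), beside 2.64 with vehicle. Derl3 was 12.6-fold lower (9.55 to 16.7) and Cxcl13, a B cell attractant, 8.26-fold lower. Endoplasmic reticulum chaperones had 8 of 26 lower and 0 higher (median -0.64). Acute phase and cholesterol genes passed 2-fold about as often as all genes, of which 13.6% did. Acute phase genes had 2 of 26 higher and 3 lower (median 0.06). Among them Saa1 read 1804 with BSO plus TGZ and 1692 with BSO plus RGZ, whereas Cd14 was 22.8-fold higher with BSO plus TGZ. Cholesterol genes had 2 of 24 higher and 1 lower (median -0.08), with Hmgcs1 at 9.78 with BSO plus TGZ and 16.4 with BSO plus RGZ. Srxn1 read 107 with BSO plus TGZ and 103 with BSO plus RGZ.

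**Figure D5:**
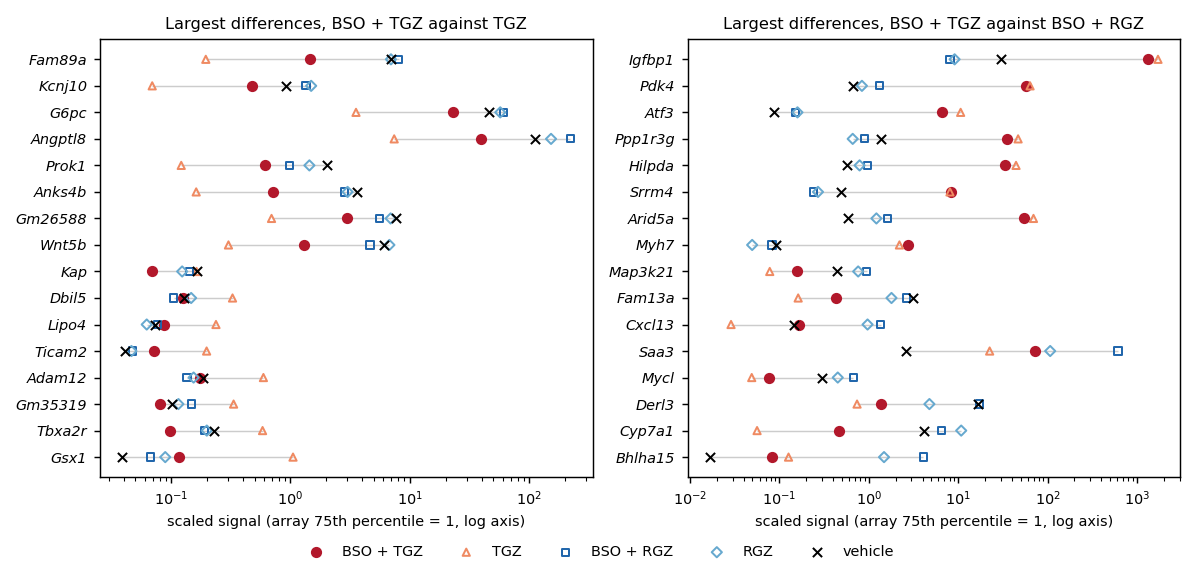
Scaled signal (log axis) on the 5 arrays, 1 array per group, for the 8 largest measured differences in each direction of BSO plus TGZ against TGZ (left) and against BSO plus RGZ (right). In the upper 8 genes of the left panel the red circles lie between the TGZ triangles and the vehicle crosses.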

How the data were processed

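Per the file headers, intensities were extracted with Agilent Feature Extraction 12.0.3.1, which subtracted background and detrended the processed signal within each array. Probe coordinates in the headers are mm9 and are not printed. The deposited log2 table held the same signals plus 1 constant per array (99.8% of values within 0.01), and the sources used here do not name the software that scaled it. Its column medians were 4.07 for BSO plus TGZ, 4.01 for TGZ, 3.92 for BSO plus RGZ, 4.00 for RGZ and 4.02 for vehicle.

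From the array files, the processed signal was divided by each array's 75th percentile. Each gene was read from 1 probe, the brightest on average across all 5 arrays. A gene not well above background on 1 of the 2 arrays received a bound, set against the higher of its own signal and the dimmest signal called there. Arrays number 1 per group and all lie on 1 slide, which limits the precision, and no test was run. Python 3.11.15, numpy 2.4.6 and pandas 2.3.3 were used, and the steps were tested on simulated data. Named genes are the 15 largest measured differences and 5 largest bounds in each direction, the 8 largest of each direct comparison, and list members past 2-fold. Members within 2-fold, other than Gclc, Gclm, Gss and Pparg, were named after their values were seen. The 69 gene lists and the comparison itself were chosen with earlier results of these data known. Of 1266 listed genes, 1260 were matched and 1211 had a value. Results for some genes among these are not reported here, though list counts and medians include them. Background removal, scaling, the filter on dim probes, the probe rule and the deposited table were varied in turn.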

Additional observations from a re-analysis of the deposited data

How the results depend on the processing

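The count of genes at least 2-fold apart depended most on background removal and on the filter. Normexp background correction with an offset of 50 gave 887 genes higher and 489 lower with BSO plus TGZ than with vehicle, against 1780 and 1265, and no filter on dim probes gave 3175 higher and 2402 lower. Spike-in scaling gave 1963 lower. The other alternatives run (median or quantile scaling, both-array and flag filters, the mean over probes, the deposited table) stayed within 1.5 times of both counts. Of 351 named genes past 2-fold, 0 changed direction under any alternative that kept them, and 251 stayed past 2-fold under every alternative that kept them, with 268 under normexp and 320 under spike-in scaling. Filters dropped some of them, leaving 319 when both arrays had to be above background and 317 with the flag filter. All 20 lists with a median of at least 0.5 in size kept its sign under every one, although the neutrophil median ranged between 0.82 under normexp and 3.39 with no filter, against 2.43. Dim genes limit the precision, since the highest signals not called above background, 0.0791 with BSO plus TGZ and 0.0736 with vehicle, exceeded the lowest ones called, 0.0598 and 0.0559. No paired analysis was possible because each group had 1 array and no test was run, and no array could be left out for the same reason.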
